A study of Mus musculus with 20 samples.

Results

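p65, also called RELA, occupied 1053 sites in lipopolysaccharide-treated wild-type (WT) macrophages that had no called counterpart in knockout (KO) macrophages. Sites were selected on the peak calls themselves: a site entered this set when the centre of its p65 peak at 30 min of lipopolysaccharide (LPS) lay within 500 bp of a p65 peak centre at 8 h in WT cells and more than 500 bp from every p65 peak centre in the 3 KO lists. These WT-only sites were 2.92% of the 36030 WT peaks at 30 min and 5.35% of the 19695 that were called again at 8 h (exact 95% interval 5.04 to 5.67%). The other 18642 sites called at both times had a KO p65 peak within 500 bp and are called shared sites here. The rule itself uses the WT 30 min, WT 8 h and KO p65 lists, so values from those lists describe the sites and support nothing further. The mirrored rule, applied to KO cells, gave 1567 KO-only sites of 17798 called at both times, or 8.80% (8.39 to 9.23%).

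The cells were bone-marrow-derived macrophages of WT mice (C65BL6 in the design text) or of KO mice, differentiated with M-CSF and untreated (control) or exposed to LPS at 100 ng/mL for 30 min or for 8 h. Chromatin occupancy was mapped by CUT&RUN, in which an antibody directs a nuclease to cut out bound DNA fragments, with antibodies to p65, to SOCS1 or with non-specific IgG. The design text names the KO gene as NOS1 while the series title concerns SOCS1, so the disrupted gene is not settled, and neither the allele nor the number of animals is given in the sources used here. Each of the 12 peak lists (6 for p65, 6 for SOCS1) came from 1 library, so a difference between WT and KO cells cannot be told apart from a difference between libraries. The 12 lists held 258959 peaks. Depth in units of 1000000 tags was 7.69, 13.3 and 10.6 for the p65 libraries of WT macrophages (control, then 30 min, then 8 h), 8.79, 18.4 and 11 for those of KO macrophages and 6.93 to 9.74 for SOCS1. The lowest score among called peaks was 10 tags in the WT 30 min and 8 h p65 lists and 9 to 12 in the KO p65 lists, so a site missing from a list may still be bound at a lower level. As a check of cell identity, all 9 macrophage markers examined (among them Spi1, Csf1r and Lyz2) had a WT p65 peak at 30 min within 10 kb, and 0 of 6 neutrophil, 4 of 6 lymphocyte and 4 of 5 dendritic cell markers did. Neutrophil markers had one at 3 of 6 in the WT 8 h list, 5 of 6 in the KO 30 min list and 3 of 6 in the KO 8 h list. Of all protein-coding genes 62.8% had a KO 30 min peak, 51.3% a KO 8 h peak and 44.3% a WT 30 min peak called again at 8 h. A nearby peak alone thus does not separate these cell types.

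p65 is the main transactivating subunit of NF-κB. In resting cells it is held in the cytoplasm by IκB proteins; sensing of LPS by TLR4 leads to IκB breakdown, nuclear entry of p65 and binding at κB motifs near inflammatory genes, and newly made IκB and A20 (encoded by Tnfaip3) then restrain the response. In macrophages much of this binding falls on enhancers opened beforehand by factors such as PU.1, AP-1 and C/EBP. SOCS1 is an inhibitor of cytokine receptor signalling that is itself induced by cytokines and LPS.

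Of the 1053 sites, 54 (5.13%) had their centre in a tabulated promoter window of 300 bases (250 before and 50 after a start site, RefSeq, GRCm38.p6, the assembly of mm10), against 5.73% of the shared sites. These 54 sites fell in 63 windows of 56 genes. The 250 bases before the start site are given for the members whose window lies outside every annotated gene: the first 3 by the lower of their 2 within-list score ranks, and Gm33424, chosen after its values were seen because its site is also the one nearest to Nfil3, 2875 bp from that gene's end. All sequences run 5′ to 3′ along the gene's strand, and capitals mark any match to the motifs searched below. The Tor4a and Supt16 stretches hold an ETS core, the Gm33424 stretch a C/EBP motif and the Slc25a10 stretch none of the motifs searched.

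Tor4a, chr2:25196814-25197063, minus strand: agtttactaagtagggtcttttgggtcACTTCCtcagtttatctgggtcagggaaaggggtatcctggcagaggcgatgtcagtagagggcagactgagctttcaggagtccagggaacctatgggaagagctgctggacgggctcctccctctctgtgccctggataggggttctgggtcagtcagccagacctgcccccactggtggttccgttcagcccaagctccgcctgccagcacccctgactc
Slc25a10, chr11:120491587-120491836, plus strand: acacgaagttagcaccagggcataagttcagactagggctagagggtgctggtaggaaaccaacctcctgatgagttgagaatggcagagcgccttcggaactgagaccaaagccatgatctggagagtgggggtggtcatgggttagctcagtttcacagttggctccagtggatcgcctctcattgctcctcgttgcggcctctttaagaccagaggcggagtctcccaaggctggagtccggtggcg
Supt16, chr14:52197240-52197489, minus strand: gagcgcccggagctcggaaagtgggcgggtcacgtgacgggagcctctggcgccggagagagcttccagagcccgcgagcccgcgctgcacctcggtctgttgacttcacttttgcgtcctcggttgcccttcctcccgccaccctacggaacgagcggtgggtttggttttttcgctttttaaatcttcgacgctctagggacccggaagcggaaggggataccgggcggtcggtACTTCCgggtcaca
Gm33424, chr13:52985715-52985964, plus strand: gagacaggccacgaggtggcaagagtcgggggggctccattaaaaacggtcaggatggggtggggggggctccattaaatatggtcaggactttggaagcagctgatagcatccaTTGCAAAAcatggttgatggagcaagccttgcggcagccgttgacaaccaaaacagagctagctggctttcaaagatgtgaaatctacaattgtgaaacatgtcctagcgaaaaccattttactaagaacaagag

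The site at Tor4a, which encodes a torsin-family ATPase, reached 57.4 p65 tags at 30 min and 59.5 at 8 h (the authors' counts per 10000000 tags), and its nearest KO p65 centre was 597 bp away. At Slc25a10, the mitochondrial dicarboxylate carrier, the values were 39.4 and 41.5 tags with a KO centre at 506 bp. Supt16, a subunit of the histone chaperone FACT, had 33.8 and 24.6 tags and a KO centre at 516 bp. These 3 sites thus lay just past the 500 bp limit of the rule. The Gm33424 site differed from them: it had 25.1 and 46.3 tags, and the nearest KO p65 centre was 9138 bp away.

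A κB motif (GGGNNNTTCC on either strand, N being any base) was present in 6 of the 63 promoter windows with a WT-only site, or 9.52% (exact 95% interval 3.58 to 19.6%). Of all 32851 tabulated windows 5.56% held it, as did 7.89% (6.42 to 9.57%) of the windows with a shared site. The interval for the WT-only windows includes both of these shares. The 6 stretches of 30 bases around these motifs are printed because they are the places in these windows where this pattern occurs, with the motif in capitals. Other forms of the κB motif were not searched, and binding of p65 to these letters was not tested.

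Emp3, chr7:45920991-45921020, minus strand: gcttctccctGGGGTCTTCCactcccttct
Cttnbp2nl, chr3:105053158-105053187, minus strand: gaccagaggaGGGTACTTCCtcccggaagt
5730408K05Rik, chr19:8888755-8888784, minus strand: gcgcgttgcgGGGCCTTTCCaagggtggtt
Gm15983, chr16:5255718-5255747, plus strand: accctgccggGGAAGGGCCCgcctgcctcc
Pop5, chr5:115235652-115235681, plus strand: gcccggatcaGGGTGCTTCCtctgggtgac
Iars2, chr1:185329418-185329447, minus strand: cttccaagccGGAAAACCCCgcccttgctc

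The motif at Emp3, a gene of a small membrane protein family, lay 6 bp from the peak centre, the closest of the 6. Its site scored 68 at 30 min and 40.5 at 8 h, and the nearest KO p65 centre was 2306 bp away. The others lay 80 to 234 bp from their peak centres. Of these, the Cttnbp2nl site scored 66.5 and 25, with a KO centre at 3950 bp. The remaining 4 sites scored 18 to 29.5 at 30 min. The other motifs searched in the same windows were AP-1 (TGANTCA), present in 7.94% of WT-only windows and 7.81% of all windows, the ETS core (GGAAGT), in 23.8% and 23.8%, the interferon-response core (GAAANNGAAA), in 1.59% and 3.44%, and C/EBP (TTGCNNAA), in 14.3% and 10.8%. Both strands were searched for each, overlaps between motifs were not removed, and every WT-only share had an interval that includes the share of all windows. The ETS core occurred in 32.7% (30.1 to 35.5%) of shared windows, within the WT-only interval of 14 to 36.2%.

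As peaks, the WT-only sites were weak. Their median score (tags in the peak, at most 1 tag per bp counted) was 20.5 at 30 min and 15.5 at 8 h, with a range of 10 to 103 at 30 min and 10 to 91 at 8 h. The shared sites had medians of 36.0 and 23.5, and all WT peaks 25.5 at 30 min and 20 at 8 h. In scaled tags the WT-only medians were 18.4 and 15.6, against 36.0 and 25 for shared sites. The fold over the local background, the authors' ratio to the surrounding 10 kb, had a median of 5.95 at 30 min where the call required at least 4. At 30 min 530 members (50.3%, 47.3 to 53.4%) had a local fold under 6, against 16.9% of shared sites and 25.7% of all WT 30 min peaks. IgG tags were at the floor value of 0.5 in 404 members (38.4%) and in 22.0% of shared sites.

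The share of WT sites that were WT-only fell with strength in the deposited values. In 4 groups by rank of score in the 30 min list, 19% (17.3 to 20.9%) of sites scoring 10 to 16.5 were WT-only, then 8.85%, 3.74% and, for scores of 41.5 to 242.5, 1.57% (1.31 to 1.88%). By local fold the share went from 18.8% (4 to 5) through 10.6%, 6.58% and 3.28% to 1.41% (12 and over). No neighbouring groups had overlapping intervals on either measure.

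**Figure D1:**
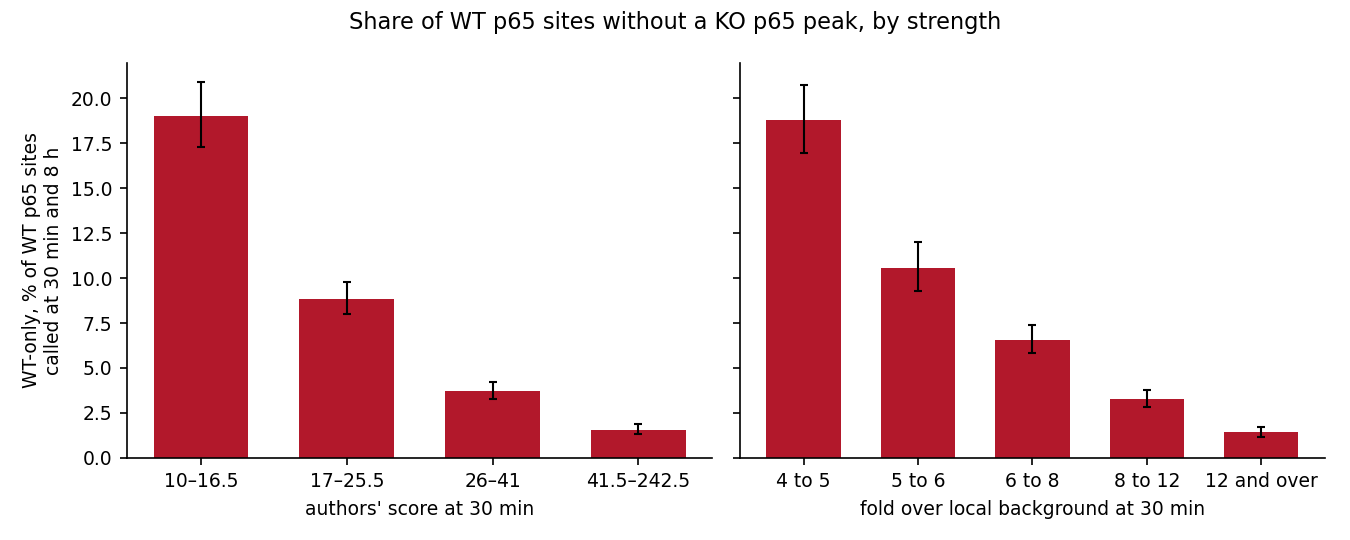
Percent of WT p65 sites called at 30 min and 8 h that were WT-only (y axis), by group of the authors' score (left) and by fold over local background (right) at 30 min. Bars are shares and lines exact 95% binomial intervals, which cover counting error only. From the lowest to the highest group the share went from 19% to 1.57% by score and from 18.8% to 1.41% by local fold.

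A KO p65 peak was often close by. The median distance from a WT-only centre to the nearest KO p65 centre was 1661 bp, and 396 members (37.6%) had one within 1 kb, 107 of them between 500 and 550 bp. In 307 of these 396 (77.5%), that nearest KO peak itself lay within 500 bp of a WT LPS p65 peak. That WT peak could be of either time, the member's own matched 8 h peak included. Only 143 members lay more than 10 kb from every KO p65 peak and 16 more than 50 kb. The authors' peak caller kept a minimum distance between peaks of 1 list, 986 bp in the KO 8 h list, 706 bp in the KO control list and 444 bp in the KO 30 min list, set from each list's peak width. Of the members, 241 (22.9%) had a KO 8 h peak within 986 bp, where that list could hold no further peak beside it, and 28 lay within the minimum distance of the KO control list. The 107 members just inside the limit of 500 bp had a median score of 22.5 at 30 min, and the 187 WT sites just outside it (KO centre at 450 to 500 bp) had a median of 28.5.

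The rule measured the distance to KO peaks from the 30 min centre alone. The 2 WT centres of a member lay a median of 52 bp apart, and 232 members (22.0%) had centres over 250 bp apart. In 129 members (12.3%) the matched 8 h centre was within 500 bp of a KO p65 centre. The other 924 members (87.7%) were away from KO peaks at both centres.

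**Figure D2:**
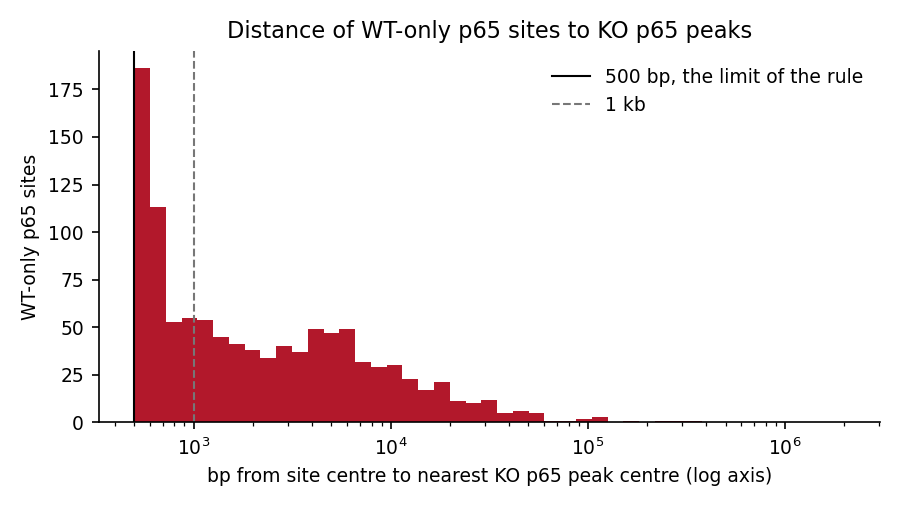
Number of WT-only p65 sites (y axis) by distance from the 30 min peak centre to the nearest p65 peak centre in any of the 3 KO lists (x axis, bp, log scale). The solid line marks the 500 bp limit of the rule and the dashed line 1 kb. The bins just above 500 bp are the fullest: 107 sites lay between 500 and 550 bp and 396 within 1 kb.

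Members had another WT peak nearby more often than shared sites did, though the median number within 5 kb was 0 in both sets. At least 1 other WT 30 min peak lay within 5 kb of 520 members (49.4%), against 34.6% of shared sites and 35.1% of all WT 30 min peaks. The median local fold was 6.2 for members with a KO centre at 500 to 550 bp, 5.9 at 600 to 1000 bp, 5.19 at 2 to 5 kb, 6.4 at 5 to 10 kb and 9.31 at 10 to 50 kb, so it was lowest at intermediate distances. The median score was 22.5 in the first of these and 15 in the last. The part of peak spacing, local background and the deeper KO 30 min library in the missing KO calls was not tested. Occupancy in fewer cells and weaker occupancy per cell cannot be told apart in these bulk libraries.

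Most WT-only sites held more p65 tags at 30 min than at 8 h. Scaled tags were higher at 30 min in 666 of 1053 (63.2%), against 75.9% of shared sites, and at least 2-fold higher at 30 min in 107 (10.2%), against 22.7%. A 2-fold higher value at 8 h was found in 44 members (4.18%) and 4.29% of shared sites. Across members the score at 30 min and at 8 h had a Spearman correlation of 0.55 (n = 1053 sites from the same pair of libraries), and across shared sites 0.69 (n = 18642).

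**Figure D3:**
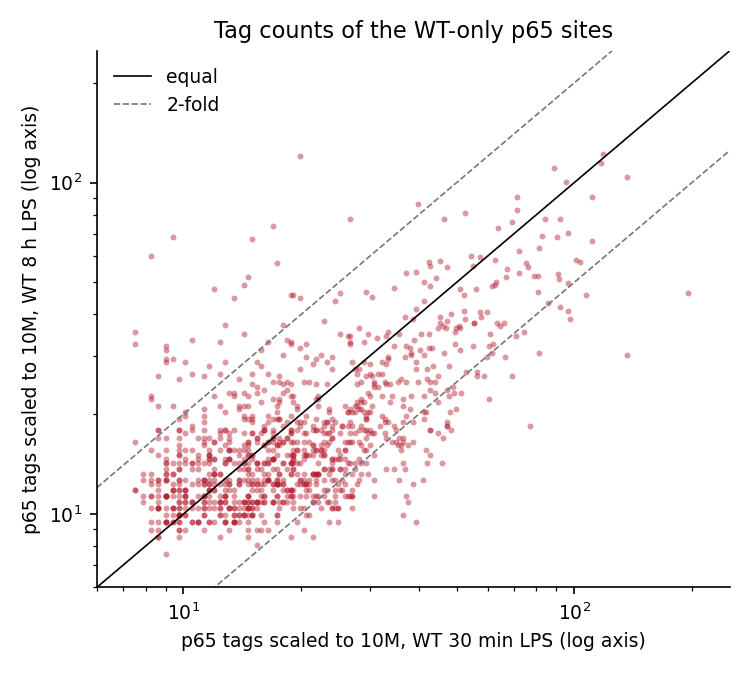
p65 tags at each of the 1053 WT-only sites in WT cells at 30 min (x axis) and 8 h (y axis) of LPS, scaled to 10000000 tags per library, log axes. The solid line marks equal values and the dashed lines a 2-fold difference: 107 sites lie at or below the lower line and 44 at or above the upper one.

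The strongest members were taken as the 20 sites whose lower within-list score rank, of the 2 times, was highest. The first lay inside Rapgef2, which encodes an exchange factor for Rap GTPases (chr3:79173878-79174132, mm10). It had 16.3 scaled p65 tags in WT controls, then 118.2 at 30 min and 122.3 at 8 h, and the nearest KO p65 centre, itself of score 154, was 4868 bp away. A SOCS1 peak was called there at 30 min in WT cells (48.2 tags) and in no KO list. The next site, on chr15:67780488-67780742, lay 303099 bp from the nearest gene end, that of Zfat, with 37.1, 136.2 and 103.9 p65 tags in control, 30 min and 8 h cells. Each of the 3 KO p65 lists had a peak 658 to 927 bp from it. SOCS1 peaks stood at this site in KO cells too, with 78.8 tags in controls and 75.2 at 30 min.

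Among the 20 were sites at Clec4d, Sod2 and Plek. Clec4d, a C-type lectin receptor for mycobacterial glycolipid, had a site 1931 bp from its end with 110.7 tags at 30 min and 90.7 at 8 h and no peak in control cells (chr6:123260049-123260303). Sod2, the mitochondrial superoxide dismutase and a classical NF-κB target, had a site inside the gene with 90.5 and 68.5 tags and none in control cells (chr17:13009658-13009912); KO p65 peaks stood 750 bp away at 30 min and 804 bp away at 8 h. Plek, which encodes pleckstrin, a substrate of protein kinase C, had 89 and 110.5 tags 2984 bp from the nearest KO peak. In these 3 genes the 30 min site was absent from the WT control list.

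Ptpn22 and Glipr1 showed a different pattern, with p65 already called in control cells. At Ptpn22, a phosphatase that tunes immune receptor signalling, the site had 87.1 tags in controls, 96.5 at 30 min and 70.4 at 8 h (chr3:103859216-103859470), and each of the 3 KO p65 lists had a peak 621 to 696 bp away. Inside Glipr1 the values were 52, 117.1 and 114.3 (chr10:111996241-111996495). The Ptpn22 site was the highest of the 20 in control cells.

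The rest of the 20 included sites inside Bcl2l1, which encodes the survival factor Bcl-xL (82.9 tags at 30 min and 68.9 at 8 h), Nrp2, a semaphorin receptor (95 and 100.6), and Specc1 (75.1 and 57.1). The site in Rchy1, a ubiquitin ligase gene, lay 40 bp from a tabulated start site with 111.1 and 66.6 tags, and the site between Ssbp4 and Lrrc25 had 76.2 and 55.7. The others were nearest to Rapgef5, Tmem178, Osbpl8, Rgs1, Igf1, Usp25, Map4k3 and Atp2b1, all with no gene end within 10 kb. Of the 20 sites, 13 lay within 1 kb of a KO p65 peak and 16 had a local fold under 6 (25.7% of all WT 30 min peaks did). For 2 of them the 8 h centre was within 500 bp of a KO centre: the site near Map4k3 (23 bp) and the site near Usp25 (482 bp). A p65 peak in WT control cells was present at 7 of the 20 (14.6% of all WT 30 min peaks), a SOCS1 peak in some list at all 20 (65.7%), and one in a KO SOCS1 list at 16 (54.2%). The 20 were picked by score, and shares in single lists were larger in higher score groups. In the highest group 24.8% of members and 26.9% of shared sites had a control p65 peak. The KO 30 min SOCS1 list by itself covered 32.2% and 71.0% of them.

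Some members differed by at least 2-fold between the 2 times. Named after their values were seen, the 4 highest at 8 h among those at least 2-fold higher then were the site inside Dock4, an exchange factor for Rac (19.9 tags at 30 min, 120.4 at 8 h), a site 14504 bp from the end of Itgb8 (39.8 and 85.9), the site inside Saa3, an acute-phase serum amyloid gene (16.9 and 74.1), and a site 95951 bp from Inhba (26.6 and 77.9). KO p65 peaks lay 505 to 1347 bp from these 4. In the other direction the site inside Lrrfip1 had 195.5 tags at 30 min, the most of any member, and 46.3 at 8 h, and the next by 30 min score among those at least 2-fold higher then were inside Chd2 (97.6 and 38.7 tags), Rad51b (92 and 42) and Camk2d (96.5 and 41.1). With 1 library a time these are differences between 2 libraries.

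The 143 members more than 10 kb from any KO p65 peak, the clearest WT-only cases by position, had a median score of 15 at 30 min and 13 at 8 h. Named after their values were seen, the highest-ranked of them with a gene end within 10 kb were at Erp29 and Tmem116 (64.6 tags at 30 min, 36.8 at 8 h, local fold 13.3), inside Anxa2, which encodes the phospholipid-binding annexin A2 (56.3 and 26.9), inside Sh3bgrl (33 and 24.6) and beside Purb (23.6 and 20.8). The Anxa2 and Purb sites also had a peak in WT control cells, with 19.5 and 13 tags. At Sh3bgrl, SOCS1 peaks were called in all 3 KO lists (86.9 tags in control, 44.5 at 30 min and 26.4 at 8 h). At Erp29 and Tmem116 no SOCS1 peak was called in KO cells.

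The WT control p65 list is not part of the rule. A control peak lay within 500 bp of 120 members (11.4%, 9.54 to 13.5%), against 20.5% (19.9 to 21.0%) of shared sites and 14.6% of all WT 30 min peaks. Within score groups the shares were 4.6% against 6.09% in the lowest group, 8.24% against 11.9% in the next, 19.4% against 21.0% in the third and 24.8% against 26.9% in the highest, with overlapping intervals in every group. The WT-only share was the lower one in all 4 groups.

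SOCS1 peaks were scarcer at WT-only sites than at shared sites in every SOCS1 list. In WT cells a SOCS1 peak lay within 500 bp of 10.8% of members in controls (22.4% of shared sites, 15.5% of all WT 30 min peaks), 21.3% at 30 min (48.3% and 34.5%) and 17.4% at 8 h (44.1% and 26.4%). In KO cells the shares were 20.0% in controls (36.8% and 27.2%), 17.1% at 30 min (49.4% and 34.6%) and 19.3% at 8 h (43.3% and 27.9%). All 6 intervals of the members lay below those of the shared sites and of all WT 30 min peaks. The p65 and SOCS1 calls of a condition used a common IgG library, so they are not fully independent at a site.

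The SOCS1 shares also differed within some score groups, the highest included. That group spans scores of 41.5 to 242.5 and members reached 103, so strength was not fully matched within it. There 42.1% (33.2 to 51.5%) of members had a SOCS1 peak in WT cells at 30 min, against 69.7% (68.7 to 70.8%) of shared sites, and 39.7% against 65% at 8 h. For KO cells at 30 min the values in that group were 32.2% (24.0 to 41.3%) and 71.0% (70.0 to 72.1%), and at 8 h 34.7% and 57.3%. Among control lists the intervals of the highest group overlapped in WT cells (28.9% and 31.5%) but not in KO cells (30.6% and 48.6%), so a gap was present there without LPS. Control intervals were also apart in the second group in WT cells (6.25% and 11.2%) and in the third group in KO cells (27.2% and 36.6%). In the third group the WT 30 min intervals overlapped (39.7% and 44.9%), while those for WT 8 h (26.7% and 38.7%), KO 30 min (27.6% and 46.6%) and KO 8 h (25.9% and 41.4%) did not. At WT 30 min the 2 lower groups were also apart, at 4.89% against 10.1% and 18.2% against 24.5%. In KO controls the lowest group gave 12.1% for members and 11.6% for shared sites, with overlapping intervals. Restricted to a local fold under 6, the highest score group gave 43.7% (33.1 to 54.7%) against 62.8% (59.5 to 66.0%) in WT cells and 26.4% (17.6 to 37.0%) against 50.5% (47.2 to 53.9%) in KO cells at 30 min, with intervals still apart. At 8 h in that subset the WT intervals were apart (33.3% and 53.1%) and the KO intervals overlapped (34.5% and 42.5%). The KO control intervals of the highest group overlapped in that subset as well (27.6% and 35.6%). In the third group of that subset the WT 30 min shares were alike, at 42.1% and 42.6%. Intervals there also overlapped for KO 30 min (30.1% and 40.5%) and KO 8 h (30.1% and 38.1%), and were apart for WT 8 h (21.8% and 38.0%).

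**Figure D4:**
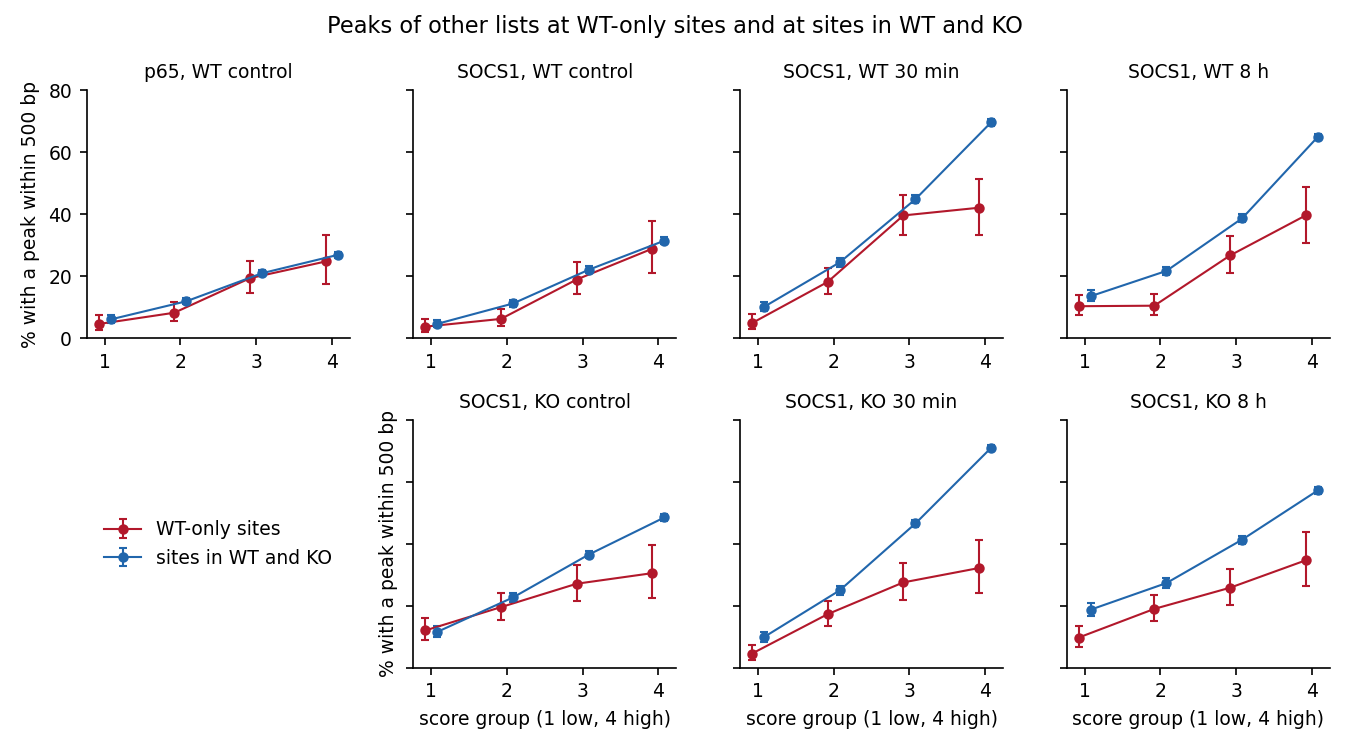
Percent of sites with a peak of each list that the rule did not use within 500 bp (y axis), in 4 groups by rank of p65 score at 30 min (x axis), for WT-only sites (red) and shared sites (blue). Points are shares and bars exact 95% binomial intervals for counting error. Control p65 intervals overlap in all 4 groups (24.8% against 26.9% in the highest), whereas SOCS1 at 30 min in KO cells is 32.2% against 71.0% in the highest group.

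Among members, 449 (42.6%, 39.6 to 45.7%) had a SOCS1 peak in at least 1 KO list, against 72.8% of shared sites and 54.2% of all WT 30 min peaks. For any of the 6 SOCS1 lists the count was 610 (57.9%), against 84.5% and 65.7%. Of the members, 161 (15.3%) had SOCS1 peaks in WT lists alone, against 11.7% of shared sites and 11.4% of all WT 30 min peaks. SOCS1 peaks in KO lists alone were found at 218 members (20.7%), against 15.3% and 16.4%. A SOCS1 peak in some WT list was present at 37.2% of members, 69.2% of shared sites and 49.3% of all WT 30 min peaks. The members' share was a little under their 42.6% for the KO lists, whose control library held the most SOCS1 peaks (24270). Whether SOCS1 peaks in KO cells reflect SOCS1 protein was not tested.

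Position relative to genes was also outside the rule. A gene end (either end, since the gene table gives no strand) lay within 1 kb of 221 members (21.0%, 18.6 to 23.6%), against 25.6% (25 to 26.2%) of shared sites and 22.6% of all WT 30 min peaks. A tabulated start site lay within 1 kb of 20.6% of members and 25.9% of shared sites (22.7% of all). By score group the start-site shares were 7.69% and 9.43%, 24.6% and 23.4%, 33.0% and 30%, and 22.5% and 27.0%, with overlapping intervals in each. Inside genes and over 1 kb from their ends lay 49.5% (46.4 to 52.5%) of members and 41.2% (40.5 to 41.9%) of shared sites. Across chromosomes the WT-only share ran from 3.98% (2.95 to 5.25%) on chromosome 7 to 7.16% (5.65 to 8.91%) on chromosome 3.

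Linking each site to every protein-coding gene with an end within 10 kb gave 768 genes, 3.51% of the 21887 in the table, from 525 of the sites. Of the 9689 genes (44.3% of all) with a WT p65 site at both times, 7.93% had a WT-only one. Most of these genes kept other p65 peaks in KO cells: 722 of the 768 (94.0%) had a KO p65 peak at 30 min and 741 (96.5%) at 30 min or 8 h. Of all genes 62.8% had a KO 30 min peak, and of the genes with a WT site at both times 98.4% did, above the share of the linked genes. A shared site has a KO p65 peak within 500 bp by the rule, so the rule itself sets much of this gap. KO peaks over 10 kb from both ends of a gene were not counted. By this measure just 23 of the 768 genes (2.99%) had no KO p65 peak in any list. They were 0.237% of the 9689 genes with a WT site at both times. Among these 23, the genes with the highest-ranked sites were Tmem116, 1700001L19Rik, Sh3bgrl, Tmem182 and Ostm1. The 23 also held Sox18, an endothelial transcription factor gene, and Psmb4, a proteasome subunit gene. Hes7, a repressor of the Notch pathway, and its neighbour Aloxe3, an epidermal lipoxygenase gene, shared 3 WT-only sites, the most of any gene, with 25.1 to 51 tags at 30 min and KO peaks at 915 to 5424 bp. Neither Socs1 nor Nos1 had a WT-only site, the nearest lying 613 kb and 492 kb away.

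In 23 gene lists covering 467 genes, 40 genes (8.57%) had a WT-only site, against 3.51% of all genes. The lists favour genes that p65 occupies: 377 of the 467 had a WT site at both times, and of those 10.6% had a WT-only one, against 7.93% among all such genes. All 40 had a KO p65 peak in some list within 10 kb, and 39 had one at 30 min, Tet2 being the exception. Of all genes with a WT site at both times 98.4% had one at 30 min, a comparison that the rule itself bears on, as above. The 40 genes were served by 39 sites, of which 26 had a local fold under 6, 16 a KO p65 peak within 1 kb, 6 a p65 peak in WT controls, 22 a SOCS1 peak in some list and 13 one in a KO SOCS1 list.

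**Figure D5:**
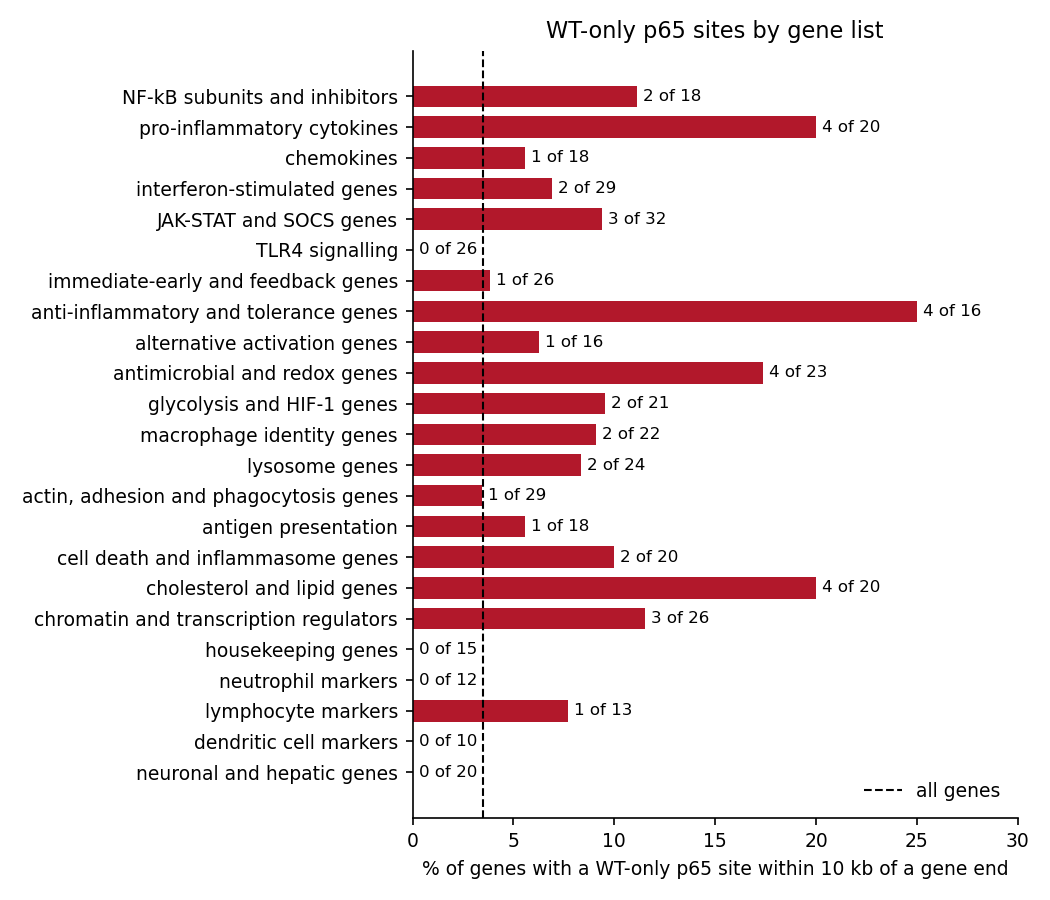
Percent of the genes of each list with a WT-only p65 site within 10 kb of a gene end (x axis), for 23 lists (y axis), with the counts beside the bars. The dashed line marks the 3.51% of all 21887 protein-coding genes. The anti-inflammatory and tolerance list is highest with 4 of 16, and 5 lists have 0. That order depends on the distance limit: with KO centres beyond 1000 bp this list has 2 of 16 and the pro-inflammatory cytokine list 4 of 20. Among all genes with a WT site at both times the share was 7.93%.

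Among NF-κB subunits and inhibitors, 2 of 18 genes had a WT-only site. That of Tnfaip3, which encodes the ubiquitin-editing inhibitor A20, lay 4120 bp from the gene (chr10:18996663-18996917) with 72.1 tags at 30 min, 62.3 at 8 h and no control peak. Its 8 h centre was 461 bp from the 30 min one and only 172 bp from a KO p65 centre, that of a KO 8 h peak with a score of 104, so by its 8 h centre this site had a KO counterpart. The site of Birc3, an inhibitor of apoptosis and ubiquitin ligase, had 11.3 and 26 tags, and the nearest KO centre was 6581 bp away. None of the 26 TLR4 signalling genes had a WT-only site, and 20 had a WT p65 site at both times. Among all genes with a WT site at both times 7.93% had a WT-only one, and 20 genes are too few to tell 0 from that share. With gene ends within 25 kb, 2 TLR4 signalling genes were linked.

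Of 20 pro-inflammatory cytokine genes 4 were linked, 3 of them through the same site. Ltb, which encodes lymphotoxin beta, had 2 WT-only sites. The site common to the 3 genes lay inside Ltb, 664 bp from its end, and within 10 kb of Tnf and Lta (chr17:35195514-35195768). Its p65 value was 18.2 tags in controls, 40.2 at 30 min and 31.2 at 8 h, the nearest KO p65 centre was 5431 bp away, and a SOCS1 peak was called in WT cells at 30 min (33.9 tags) and in no KO list. All 3 genes had other p65 peaks within 10 kb in KO cells at 30 min. The site in Il18 had 18.8 and 24.6 tags with no control peak. Of 18 chemokine genes only Cxcl3, a neutrophil attractant, was linked (19.5 and 15.6 tags).

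The anti-inflammatory and tolerance list had 4 of 16 genes: Ptpn22 (above), Nfil3, Cd200r1 and Il10. Nfil3, a bZIP repressor induced by cytokines, had the Gm33424 site printed above; its 2 WT centres were 410 bp apart, and SOCS1 peaks were called in WT cells at 30 min (18 tags) and 8 h (25.2 tags) and in KO controls (23.6 tags). Cd200r1, an inhibitory receptor of myeloid cells, had 25.9 and 21.2 p65 tags and SOCS1 peaks in all 3 KO lists. Il10 had 20.3 and 16.5 tags at 1467 bp from the gene, and a KO 30 min p65 centre stood 506 bp away, just past the limit. The 8 h centre at Il10 was 483 bp from a KO centre.

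Antimicrobial and redox genes gave 4 of 23, among them Sod2 and Saa3 (above) and Hmox1. The site of Hmox1, heme oxygenase 1, had 27 tags at 30 min and 28.8 at 8 h. These 3 sites lay 505 to 859 bp from a KO p65 centre. Cholesterol and lipid genes gave 4 of 20, among them Pltp, the phospholipid transfer protein gene, and Mylip, which encodes a ubiquitin ligase. Pltp had 2 WT-only sites. The higher-ranked one, inside Ctsa, had 32.7 and 19.4 tags and the Mylip site 18 and 24.6, with KO p65 centres 1223 bp and 5285 bp away. The other Pltp site, 230 bp before a tabulated start site, had 36.4 and 14.2 tags and a KO centre at 688 bp.

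Among JAK-STAT genes 3 of 32 were linked, among them Il6ra (39.4 tags at 30 min, 27.4 at 8 h) and Il10ra (32.3 and 28.8). KO p65 centres stood 553 bp from the Il6ra site and 2419 bp from the Il10ra site, and the 8 h centre at Il6ra was 491 bp from a KO centre. Interferon-stimulated genes gave 2 of 29, Isg15 (35.7 and 34.9) and Gbp5 (10.1 and 11.8). Immediate-early genes gave 1 of 26, Egr1, with 14.3 tags in controls, 57.8 at 30 min and 39.2 at 8 h. The Egr1 site had a KO p65 centre at 656 bp.

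Chromatin and transcription regulators gave 3 of 26. Tet2, a DNA demethylase, had 22.1 tags in controls, 63.1 at 30 min and 50 at 8 h, with the nearest KO p65 centre at 1510 bp in the KO control list and no KO peak within 10 kb of the gene at 30 min. Ahr, the aryl hydrocarbon receptor, had 12.8 and 11.8, and its 8 h centre was 488 bp from a KO centre. Lysosome genes gave 2 of 24, Lipa, the lysosomal acid lipase (47.3 and 55.7), and Ctsa (32.7 and 19.4, the site that also links Pltp). Other linked genes were Folr2 of 16 alternative activation genes (69.4 and 26), Nlrc5 of 18 antigen presentation genes (41.3 and 30.2), Itgb2 of 29 actin, adhesion and phagocytosis genes (24 and 18.4), Bid of 20 cell death genes, Aldoa and Pdk1 of 21 glycolysis genes, and Mertk and Tfeb of 22 macrophage identity genes. Cd3g was the single lymphocyte marker linked, of 13, and no gene was linked in the lists of 15 housekeeping genes, 12 neutrophil markers, 10 dendritic cell markers and 20 neuronal and hepatic genes. Of these last 4 lists, the housekeeping genes had 14 with a WT p65 site at both times and the neuronal and hepatic genes 0.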

How the data were processed

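CUT&RUN peaks of p65 and SOCS1 from WT and KO macrophages were analysed in 12 lists of 1 library each. Per the submitters' processing notes, the authors used cutadapt, Bowtie2 2.4.1 and HOMER 4.11 with the mm10 build. Per the file headers, HOMER called each list against the IgG of its own genotype and treatment, with an FDR of 0.001, at least 4-fold over IgG and over the local 10 kb, and at most 1 tag per bp. The deposited signal is the peak's tag count scaled to 10000000 tags, or the scaled IgG tags. The deposited score is findPeaks' own, not scaled to depth. The ratio is the authors' fold over IgG or over the local region. None of these was recomputed, and an E. coli spike-in named in the labels was not used here. These values only describe, rank or filter sites of 1 list.

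Sites were matched by peak centres within 500 bp, and compared with shared sites and with all WT 30 min peaks in 4 groups by rank of score. Genes (21887 protein-coding genes of RefSeq's GRCm38.p6 table, which gives no strand) were linked where either end lay within 10 kb of a centre; exon and intron could not be told apart. Of 468 genes in 23 lists 467 were found. Promoter windows came from RefSeq; chromosome 18 has none in that table and was left out of start-site shares. No genome was used, so peaks outside promoter windows have no sequence here. The members and gene lists were chosen with earlier results of these data known. Genes were named by rule: the 20 sites with the highest value of the lower of their 2 within-list score percentiles, up to 4 genes of each list by the same value, Socs1 and Nos1, and up to 6 promoters in the same order. Some genes that the rule names are not reported here, though they stay in the counts. The promoters printed in full depart from that order, since windows that overlap an annotated gene were passed over and Gm33424 was added. With 1 library per group no test was made. Intervals are exact (Clopper-Pearson) 95% binomial intervals and cover counting error only. The 6 IgG libraries entered through the authors' calls alone, and the internal control libraries were not used here. Matching was tested on simulated peaks. Python 3.11.15, pandas 2.3.3, NumPy 2.4.6, SciPy 1.17.1 and Matplotlib 3.10.9 were used. Other matching distances, stricter folds and other gene distances were tried.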

Additional observations from a re-analysis of the deposited data

How the results depend on the processing

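No paired analysis was possible because each group had 1 library. The count of 1053 WT-only sites was 1607 with centres within 250 bp, 192 with WT peaks at least 8-fold above local background, 644 with WT peaks at least 8-fold above IgG and 664 with all lists at least 8-fold above local background. It stayed within 1.5 times of 1053 with centres within 1000 bp (723), overlap of 1 bp (1442), the control list of KO cells ignored (1188) and members taken from the 8 h list (1058). Chosen after seeing the data, KO centres beyond 1000 bp left 657 sites, beyond 5000 bp 290, and beyond 500 bp of both WT centres 924. The share with a SOCS1 peak in WT controls became 8.53% within 250 bp, 8.81% by overlap and 5.73% with WT peaks at least 8-fold above local background. In WT cells at 30 min it became 14.1% under that 8-fold limit and 16.9% with KO centres beyond 1000 bp (shared sites 52.9% and 47.8%). For KO controls it became 16.2% within 250 bp. For KO cells at 30 min it became 19.7% within 250 bp, 19.8% within 1000 bp and 21.0% by overlap, and 15.4% against 48.8% of shared sites with KO centres beyond 1000 bp. Members' SOCS1 shares lay below those of the shared sites in each setting for which they were computed: 250 bp, 1000 bp, overlap, KO centres beyond 1000 bp and, for the WT lists alone, 8-fold above local background. The share near a gene end was 39.1% within 5 kb. List genes with a WT-only site numbered 25 within 5 kb, 65 within 25 kb, 25 with KO centres beyond 1000 bp and 35 with KO centres beyond 500 bp of both WT centres. The share on chromosome 3, highest in both settings, was 4.71% with KO centres beyond 1000 bp. Outside the counts of single gene lists, 29 alternative values stayed inside the main interval or within 1.5 times of the main count. Another 20 did not. The 29 include those within 1.5 times of 1053. Of the counts of single gene lists, 42 stayed equal or within 1.5 times and 27 did not.

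Limits: variation between animals or experiments was not measured, and 1 library stood for each condition. Members had few tags (median score 20.5 at 30 min, where 10 was the lowest called), so a missing KO peak does not show missing binding. Depth differed, with 1.38 times as many tags in the KO as in the WT 30 min p65 library, and the KO 8 h list used the widest peaks, 493 bp.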
